A study of Mus musculus with 15 samples.

Results

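Deep multicopy repeats were described here outside the ribosomal DNA block of chromosome 17. They were taken as the CpG positions whose mean coverage over the 15 libraries was at least 5 times the median of that mean over all listed positions (160 reads against a median of 32), leaving out positions 39843014 to 39848698 of chromosome 17. The rule kept 334 of 204492 listed CpGs, or 0.163%, which formed 57 loci when positions at most 1 kb apart were joined. Depth chose these CpGs, so depth is given as a description and was not tested. Methylation was not used by the rule, except that no position is on the list with fewer than 11 methylated reads in any library.

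The DNA came from sperm of male C57BL/6 mice of generation G1, in 7 control diet and 8 protein restricted diet libraries. Reduced representation bisulfite sequencing was used, in which MspI cuts at CCGG and unconverted cytosines in the fragments are read as methylated. The labels give no age, and they do not say whether the sampled mice or a parent ate the diet, nor which libraries share a litter or a run. The labels name no mouse, so the p-values rest on the spread among libraries, which may be technical. As a check of the tissue, 7 CpGs upstream of the imprinted genes Meg3 and Rasgrf1, which carry methylation in sperm, lay between 92.6% and 97.0% in single libraries.

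Repeated DNA makes up much of the mouse genome, and the assembly holds only a few copies of the largest families. Reads from many copies of such a family can pile up on the few copies present, so coverage can be far above that of single-copy sequence. The methylation level is then an average over copies that may differ. Pericentromeric satellites are the most abundant of these families. They are packed in heterochromatin, are heavily methylated in somatic cells and are known to carry less methylation in sperm, whose DNA is otherwise highly methylated.

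Loci are named by their chromosome or scaffold, with a letter in order along it where it holds several. Of the 57 loci, 17 held 1 CpG, 8 held 2 and 32 held 3 or more. The locus with the most CpGs was chrY-A (43 CpGs, Y chromosome, 90742021 to 90744121), followed by chr2-C (29 CpGs, 98666262 to 98667325) and chr6-A (23 CpGs, 3201231 to 3201576). Scaffold JH584304, which is not placed on a chromosome, held 7 loci with 37 CpGs. Another 11 loci with 83 CpGs lay before position 3300000, at the centromeric start of the assembled sequence, on 5 chromosomes. The span of a RefSeq gene held 26 of the loci.

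Sequence was at hand for 2 of the loci, where the RefSeq promoter window of a gene (GRCm38.p6, from 250 bases before to 50 bases after the annotated start) holds deep CpGs. Both windows are shown 5′ to 3′ on the gene's strand, with the measured deep CpGs in capitals, because they set a highly methylated repeat beside one of intermediate methylation. The first is that of Gm52481, a predicted protein-coding gene that starts within chrY-A (chrY:90742479-90742778, plus strand), and the second that of G530011O06Rik, a long non-coding RNA gene at chrX-B (chrX:169978868-169979167, minus strand).
Gm52481: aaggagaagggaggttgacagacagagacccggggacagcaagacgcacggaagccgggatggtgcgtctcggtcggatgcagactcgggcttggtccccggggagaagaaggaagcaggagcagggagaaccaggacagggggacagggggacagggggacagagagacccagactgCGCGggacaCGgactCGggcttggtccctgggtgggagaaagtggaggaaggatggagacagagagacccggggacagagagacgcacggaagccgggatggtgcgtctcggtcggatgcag
G530011O06Rik: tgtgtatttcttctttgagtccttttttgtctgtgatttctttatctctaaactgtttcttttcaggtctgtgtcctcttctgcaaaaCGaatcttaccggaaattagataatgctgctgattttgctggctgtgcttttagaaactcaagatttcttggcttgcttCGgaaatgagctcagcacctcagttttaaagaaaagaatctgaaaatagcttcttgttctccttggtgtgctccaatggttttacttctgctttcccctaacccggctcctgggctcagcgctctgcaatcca
The Gm52481 window has 20 CG dinucleotides on its strand, of which 4 were listed, and all 4 were deep, at 94.2% to 95.6%. The G530011O06Rik window has 5, of which 2 were listed and deep, at 53.4% and 58.9%. The MspI site CCGG, which reads the same on both strands, occurs 5 times in the first window and 2 times in the second. It is found in 52.8% of the 32851 promoter windows. The listed base was the C of a CG in all 717 listed positions that fall in any of these windows, so the coordinates match this build and are given on the plus strand.

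Deep repeats were much less methylated than the rest of the list. The median over the 334 CpGs was 48.0%, against 98.2% over the 203786 other CpGs outside the chromosome 17 block. A mean of 90% or more was seen at 53 of the 334 CpGs (15.9%) and at 89.9% of the others, and a mean under 50% at 177 (53.0%) and 0.729%. Of the 28 listed CpGs with a mean under 10%, 25 were deep repeat CpGs and 3 lay in the chromosome 17 block. The list bears on this contrast, since a CpG at ordinary depth with little methylation cannot reach 11 methylated reads in every library and is not listed. The part of this limit in the contrast was not tested. At the threshold, the 5 CpGs just inside it had mean coverages of 161 to 164 reads and means of 47.4% to 69.99%, and the 5 just outside 155 to 158 reads and 24.6% to 57.3%. Most of those inside were the CpGs of chr13-D, and most of those outside lay close together on chromosome 4. Neighbouring CpGs can share reads, so few separate places are compared here.

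**Figure D1:**
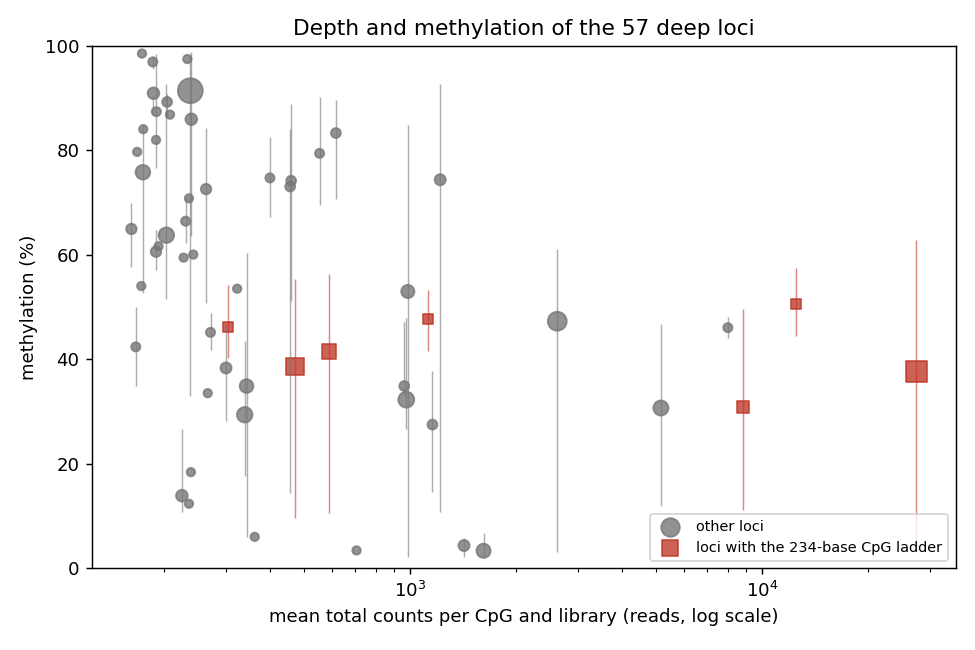
Mean coverage per CpG and library (horizontal axis, reads, log scale) and methylation (vertical axis, percent, summed over CpGs and libraries) of the 57 loci. Symbols grow with the number of CpGs, vertical lines run from the lowest to the highest CpG of a locus, and the 7 red squares, 30.8% to 50.6% methylated, are the loci with the repeated CpG spacing.

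Depth was concentrated in a few loci. The mean coverage of a locus ran from 162 reads at chr13-D to 27484 at chr2-C, and 11 loci were above 1000 reads. At chr2-C the CpG at 98666272 alone had a mean of 155236 reads, at 45.02% methylation. After chr2-C came chr9-C (3020493 to 3020539, 12485 reads), chr9-F (35305418 to 35305582, 8826 reads), JH584304-F (81191 to 81219, 8013 reads), chr2-A (98662264 to 98662794, 5170 reads) and chr6-A (2624 reads). All read counts at the 334 CpGs together made up 8.39% to 18.4% of a control library and 7.35% to 16.1% of a protein restricted library. The locus chr2-C accounted for 61.3% to 72.1% of them.

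In 7 loci the deep CpGs fell on a common ladder of distances. In chr9-A (19 CpGs, 3000341 to 3002154) the first CpGs were 12, 28, 18, 42, 16, 15 and 103 bases apart, which adds up to a unit of 234 bases. This is the known monomer length of the mouse major satellite, the main pericentromeric repeat. The loci chr9-A, chr9-B (3006784 to 3006830), chr9-C, chr9-D (3023537 to 3024472) and chr9-E (3025521 to 3025567) ran through the ladder in this order, and chr2-C and chr9-F in the reverse order. The ladder was found after the positions were seen. A gap of 28 bases beside one of 12 or 18 in these orders marked these 7 of the 32 loci with at least 3 CpGs, and 57 of 29729 other groups of CpGs on the list. Positions were counted from the nearest such match, with no tolerance, since units were not all 234 bases apart. Matches 233 bases apart occurred in chr9-A and chr9-D and 251 bases apart in chr2-C. Of the 74 CpGs in the 7 loci, 65 then sat on a step of the ladder. The matched gaps themselves account for 44 of these, leaving 21 others on a step and 9 off it, 8 of them in chr2-C. Counted from the first match of each locus alone, 42 of the 74 sat on a step. Loci of 2 CpGs could not be marked in this way. Among them, JH584304-F (81191 and 81219) and JH584304-G (106439 and 106467) each held 2 CpGs 28 bases apart. Those of JH584304-F were at 44.1% and 48.1%, and those of JH584304-G at 41.8% and 48.9%. These loci were not counted as ladder loci. The sequence itself was not matched to the satellite here.

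Methylation depended on the step. At position 58 of the unit, 9 CpGs had a median of 54.2% (38.9% to 59.6%), and at position 100, 42 bases farther, 6 CpGs had a median of 11.3%. The lowest CpG at position 58, at 3001744 in chr9-A, was below positions 40 (44.3%) and 12 (48.5%) of its own unit. The low step was at 9.64% in chr9-A, 10.6% in chr9-D and 11.1% in chr9-F, and at 11.5%, 13.4% and 25.6% in the 3 units of chr2-C. These loci lie on 2 chromosomes and in both orientations. Position 40 lay at 33.0% to 44.4% over 13 CpGs in all 7 loci, whose coverage ran from 167 to 104966 reads, and position 12 at 35.3% to 50.04% in the same loci. Among the CpGs off the ladder, 4 sat at position 186 in the reverse loci, at 40.8%, 41.6% and 48.0% in chr2-C and 39.5% in chr9-F.

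Position 0 separated the copies. It was at 33.7% to 47.4% in chr9-A and at 43.2% and 45.8% in chr9-D, but at 17.1% in chr9-F and at 17.3%, 32.0% and 46.3% in the units of chr2-C. The last CpG of chr2-C (98667325) was at 3.16%, where the other CpGs at position 116 were at 30.3% to 39.6%. Averaged over the CpGs of a step, single libraries lay between 51.3% and 55.5% at position 58 and between 12.3% and 14.4% at position 100, and position 58 was the higher in all 15 libraries. The steps kept this order in both diets. Position 58 averaged 54.1% ± 0.810 (SD) over the 7 control libraries and 53.1% ± 1.16 (SD) over the 8 protein restricted ones, and position 100 13.7% ± 0.512 and 13.6% ± 0.675.

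**Figure D2:**
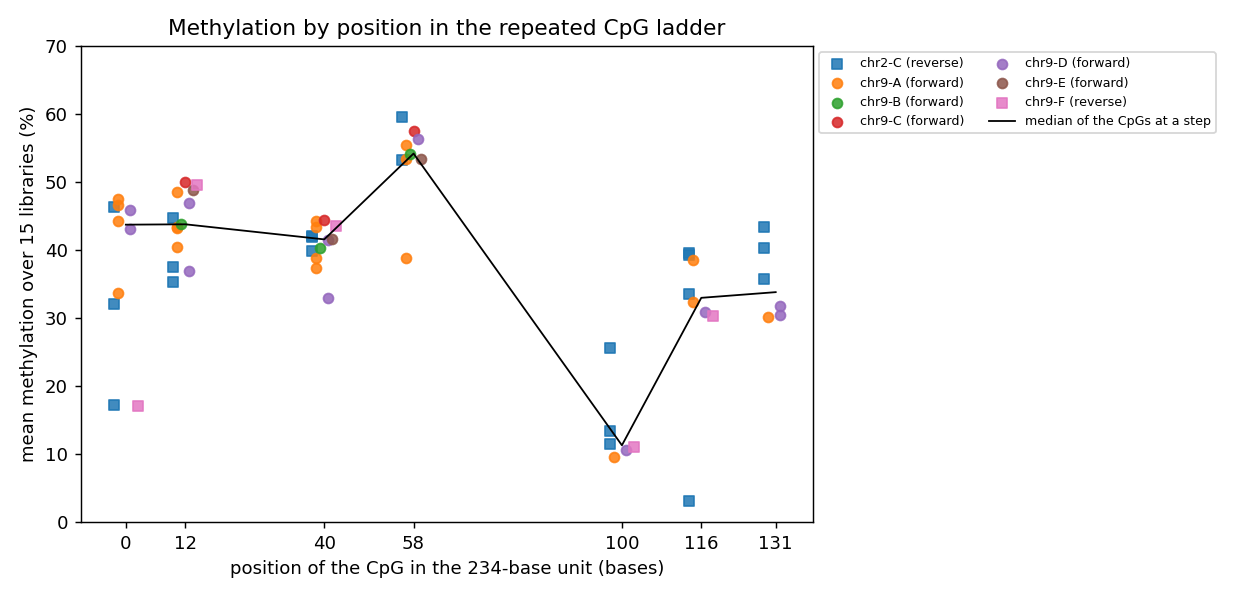
Mean methylation over the 15 libraries (vertical axis, percent) of the 65 CpGs on the ladder, by their position in the 234-base unit (horizontal axis, bases). Colours are loci, circles run forward and squares in reverse, points are shifted sideways by locus for legibility, and the line joins the medians, which are highest at position 58 (54.2%) and lowest at position 100 (11.3%).

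Outside the ladder, deep loci also showed single CpGs of very low methylation beside highly methylated ones. In Sfi1, which encodes a centrin-binding protein of the centrosome and spindle pole, chr11-B (3193509 to 3193596) had CpGs at 92.7%, 91.9%, 88.4% and 87.8%, and between them 1 at 10.9%, all with a mean coverage of 1220 reads. In the same gene, chr11-A (3185961 to 3186342) ran from 2.14% to 84.9%. The last CpG of chr6-A was at 3.09%, where the other 22 were at 31.2% to 61.1%. At chr14-A (19416969 to 19417904) the last CpG was at 5.97% and the others at 23.1% to 60.4%. A copy of a repeat that carries TG in place of CG is also read as unmethylated, and the share of such copies was not tested. These examples were picked after their values were seen.

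Little methylation throughout was found at 4 loci. The largest was JH584304-D (59103 to 59813, 11 CpGs, mean coverage 1620 reads), whose CpGs lay between 1.89% and 6.67%. The other 3 were close together on chromosome 6, chr6-B (47748391) at 3.41%, chr6-C (47750026) at 6.01% and chr6-D (47778142 to 47778272, 5 CpGs) at 4.35%. The first of these is within 2 kb of the non-coding gene Gm52861. Methylation of 90% or more over the summed counts was found at 5 loci, among them chrY-A at 91.4% and chrX-D at 90.9%. The means of single CpGs of chrX-D over libraries were 86.8% to 90.4%. The rest were intermediate, with 21 loci from 10% to under 50% and 27 from 50% to under 90%.

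Relative depth and methylation were each compared between libraries. Relative depth, the reads of a locus per 1000000 reads at the CpGs outside the deep repeats and the chromosome 17 block, differed between the highest and the lowest library by a factor of 2.43 at the median locus, by a factor of 14.7 at JH584304-A (6662 to 6682) and by a factor of 19.0 at chr11-C (3195359 to 3195644, also in Sfi1). The within-diet SD of methylation was 5.15 percentage points at JH584304-A, among the 6 loci over 5 points, and 2.08 at chr11-C. In the 7 ladder loci the factor was 3.35 to 5.92. The SD of methylation in the ladder loci was 0.668 to 2.15 points, below the median of 2.69 over the 57 loci. At chr9-C, for example, relative depth ran from 1777 to 10514 and methylation from 49.0% to 51.7%. JH584304-F, which is not among the 7 ladder loci, had a factor of 5.94 and an SD of 0.809 points at a mean coverage of 8013 reads. Counting noise is larger at loci with fewer reads and was not separated from these SDs.

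The widest spread of methylation was at chr16 (57391288 to 57391501, 15 CpGs, within Cmss1 and Filip1l), with a within-diet SD of 11.1 points, followed by chr6-A with 6.92. At chr16, control libraries had 17.9% at the lowest, 31.8% at the median and 63.2% at the highest, and protein restricted libraries 26.03%, 34.7% and 44.4%. Control replicate 3 held the highest value and control replicate 5 the lowest, so the control range enclosed the other. Within chr16 the first 7 CpGs were at 42.3% to 48.0% with mean coverages of 243 to 633 reads, and the last 8 at 26.6% to 31.7% with 1201 to 1378 reads. The dispersion of the summed counts would be near 1 if counts were independent and the libraries of a diet had the same level. Reads counted at several CpGs of a locus, PCR copies, or libraries that differ in level can raise it. This dispersion was above 100 at 3 loci, chr6-A, chr16 and chr2-C, and under 2 at 22 loci. At chr2-C the high dispersion of 147 went with an SD of 0.668 points, at a mean coverage of 27484 reads. The source of this dispersion was not tested.

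**Figure D3:**
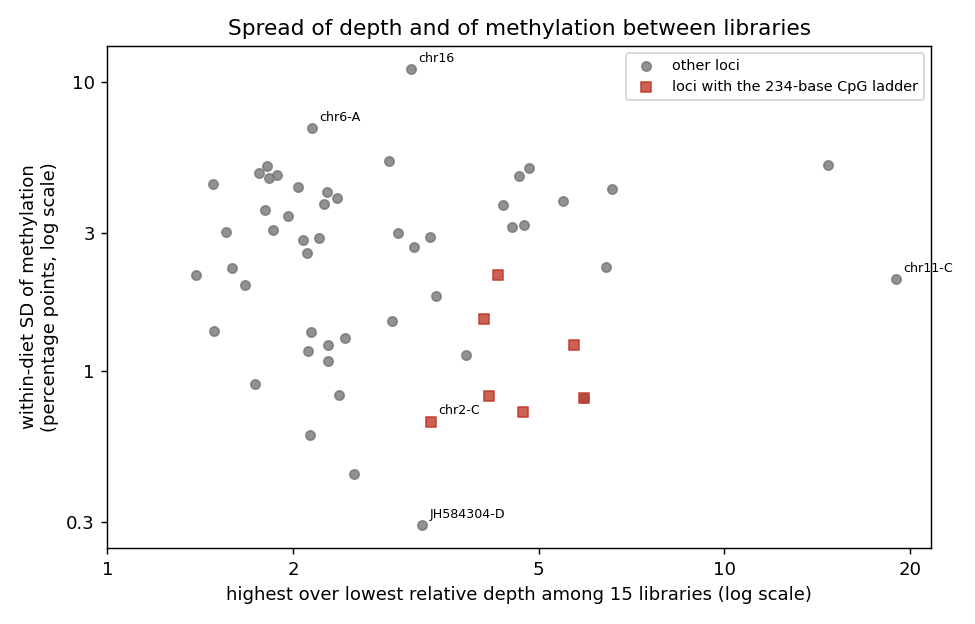
Highest over lowest relative depth among the 15 libraries (horizontal axis, log scale) and within-diet SD of methylation (vertical axis, percentage points, log scale) for the 57 loci. The ladder loci (red squares) have depth ratios of 3.35 to 5.92 and SDs of 0.668 to 2.15 points. JH584304-F, among the other loci, has 5.94 and 0.809 points, and chr16 and chr6-A have the widest spread of methylation.

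The comparison between diets asked whether protein restriction went with a difference in methylation at these repeats. No deep CpG was called. In a quasi-binomial logistic regression of the counts on diet, fitted at each listed CpG with Benjamini-Hochberg adjustment over all 204492, 0 of the 334 passed an adjusted p of 0.05, as did 0% of all CpGs. At an unadjusted p under 0.05 there were 16 of the 334 (4.79%), against 3.79% of all CpGs. In the protein restricted diet 2 of these 16 had more methylation and 14 had less. Of the 14, 8 were in the single locus JH584304-D, where neighbouring CpGs can share reads. Among the CpGs outside the deep repeats and the chromosome 17 block, 3861 with such a p were higher and 3870 lower. The test in limma on percentages called 0, with 11 at an unadjusted p under 0.05. The share of all CpGs at such a p in limma was not counted, so the 11 have no background to be read against. Over the 334, 168 CpGs had a higher and 166 a lower mean in protein restricted sperm, with a median difference of 0.0182 points, and 0 over the other CpGs.

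Summed over loci, the same test called 0 of 57, as it did 0% of all 80121 groups of CpGs. An unadjusted p under 0.05 was reached by 1 locus, JH584304-D, against 3.42% of all groups. In limma 0 loci were called and 2 had an unadjusted p under 0.05, and the share of all groups was not counted there. The mean was higher in protein restricted sperm at 21 loci and lower at 36, and differences ran from -5.16 to 4.97 points with a median of -0.336. For 14 loci, chosen by their number of CpGs or by the smallest p, the difference was also compared by an exact two-sided permutation test over the libraries, without adjustment. In the fit across all groups each of the 14 had an adjusted p of 1.

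**Figure D4:**
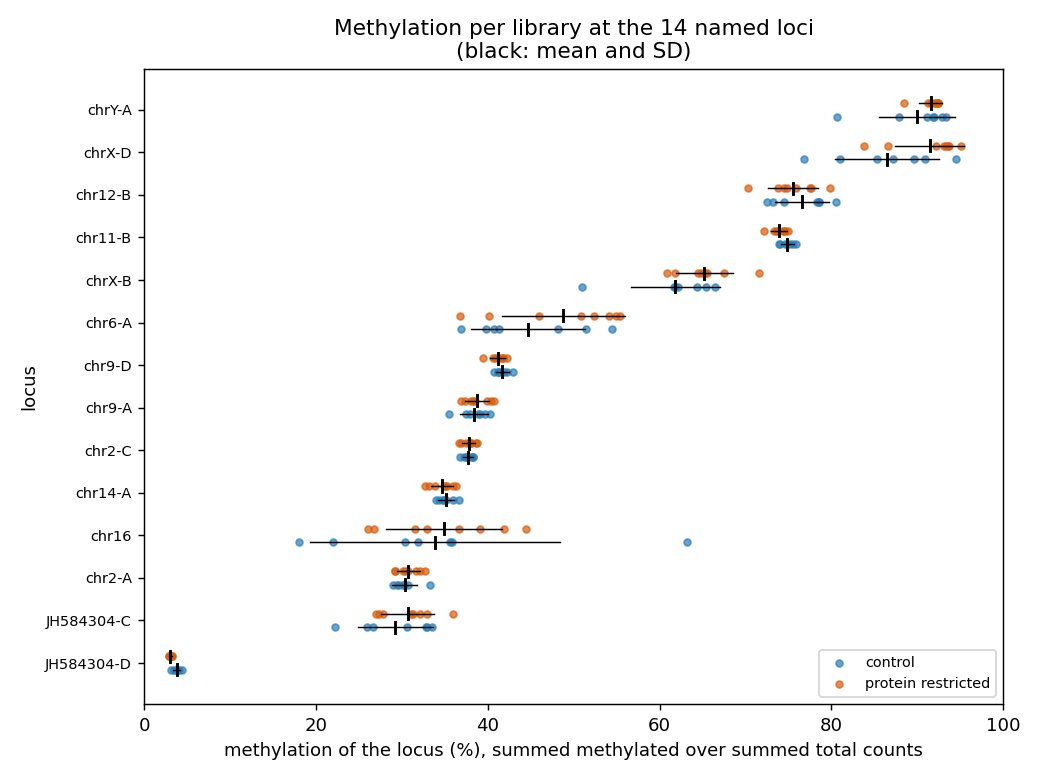
Methylation of the 14 named loci (horizontal axis, percent, summed methylated over summed total counts) with 1 point per library, control below and protein restricted above in each row, and black bars for mean and SD. The diets overlap in every row, and control replicate 3 stands apart at chr16 (63.2%).

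Loci with little spread gave narrow intervals. At chr2-C control libraries had 36.8%, 37.5% and 38.3% (lowest, median, highest) and protein restricted libraries 36.6%, 37.9% and 38.7%, so the ranges nearly coincided. The means ± SD were 37.7% ± 0.563 (n = 7) and 37.7% ± 0.746 (n = 8). The difference was 0.0837 points, with a 95% interval of -0.667 to 0.837 (exact permutation p = 0.808), and it was -0.287 points when CpGs were weighted equally. At chr2-A the difference was 0.421 points (-1.12 to 1.91, exact permutation p = 0.561), and -0.567 with equal weights. The ladder loci chr9-A and chr9-D differed by 0.388 (-1.30 to 2.12, exact permutation p = 0.631) and -0.489 points (-1.42 to 0.420, exact permutation p = 0.279), the latter -0.00658 with equal weights. At chr14-A the difference was -0.458 points (-1.75 to 0.836, exact permutation p = 0.449). None of these 5 intervals reached past 2.12 points in either direction.

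The scaffold locus JH584304-D had the smallest p. Control libraries were at 3.13%, 3.82% and 4.31% (lowest, median, highest) and protein restricted libraries at 2.84%, 3.01% and 3.22%. Of the 7 control libraries 6 lay above every protein restricted library, and the lowest, control replicate 4, lay among them. Control averaged 3.76% ± 0.407 (SD, n = 7) and the protein restricted diet 3.01% ± 0.131 (SD, n = 8), a difference of -0.741 points (95% interval -1.06 to -0.411, exact permutation p = 0.000466, quasi-binomial adjusted p = 1). Leaving out any 1 library gave -0.845 to -0.648 points, with exact permutation p between 0.000333 and 0.00175. Libraries with neighbouring title numbers were also merged, into 3 control and 4 protein restricted values. The difference was then -0.600 points (exact permutation p = 0.0286, the smallest possible with so few values). Every control library has a lower title number than any protein restricted library, so diet and numbering order could not be tested apart. Neighbouring CpGs can share reads, so the 11 CpGs were not taken as independent, and 10 of the 11 had a lower mean in protein restricted sperm.

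Within JH584304-D, the CpG at 59103 was at 4.09% ± 0.402 (SD, n = 7) and 2.99% ± 0.537 (SD, n = 8), that at 59265 at 3.10% ± 0.576 and 2.20% ± 0.330, and that at 59271 at 4.40% ± 0.835 and 3.39% ± 0.316. These were the 3 deep CpGs with the smallest unadjusted p among those lower in protein restricted sperm. Each had an adjusted p of 1 in the quasi-binomial test. The median difference over the locus's CpGs was -0.875 points. The other 14 deep CpGs under 10%, in 8 loci, had a median difference of 0.00620 points, 7 higher and 7 lower. The low locus chr6-D, chosen after its values were seen, was at 4.39% ± 0.471 (SD, n = 7) and 4.39% ± 0.413 (SD, n = 8). Relative depth of JH584304-D overlapped between the diets, with 1248, 2492 and 3796 (lowest, median, highest) in control and 1597, 2101 and 4041 in protein restricted libraries. Whether depth, or unmethylated cytosines left unconverted, had a part in the difference at these low levels was not tested.

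**Figure D5:**
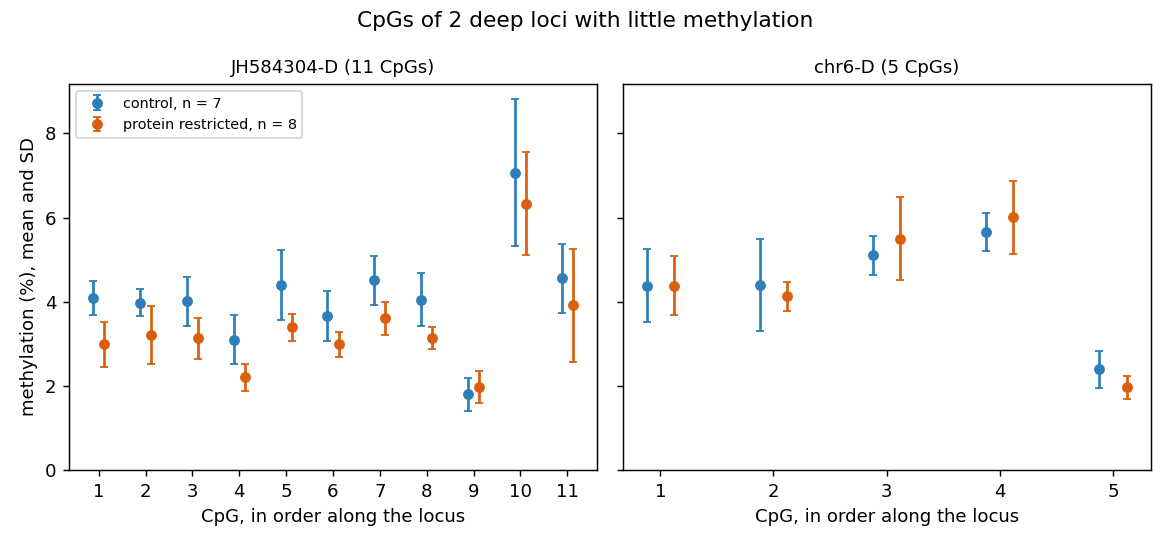
Methylation (vertical axis, percent, mean and SD over libraries) of each CpG in order along JH584304-D (left, 11 CpGs) and chr6-D (right, 5 CpGs), in control (blue) and protein restricted (orange) sperm. In JH584304-D the orange means are lower at 10 of 11 CpGs, and the means of chr6-D as a whole are 4.39% in both diets.

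The other scaffold locus of many CpGs, JH584304-C (34109 to 34407, 14 CpGs), was intermediate, at 29.2% ± 4.35 (SD, n = 7) and 30.6% ± 3.12 (SD, n = 8), a difference of 1.41 points (-2.75 to 5.60, exact permutation p = 0.478). It was 0.239 points without control replicate 4, 0.659 without protein restricted replicate 2 and 2.73 when neighbouring title numbers were averaged into runs. The remaining scaffold loci lay between 45.2% at JH584304-G (106439 to 106467) and 74.7% at JH584304-E (63177 to 63206), and JH584304-F, the deepest of them, was at 46.2% ± 0.850 (SD, n = 7) and 46.0% ± 0.771 (SD, n = 8).

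The X chromosome held 4 deep loci and the Y chromosome 2. Mid1, which encodes a microtubule-associated ubiquitin ligase, spans the boundary of the pseudoautosomal region in this strain, and 3 of the X loci lie in its span. At chrX-D (169984767 to 169984861, 6 CpGs) control libraries were at 76.8%, 87.2% and 94.5% (lowest, median, highest) and protein restricted libraries at 83.8%, 93.3% and 95.04%. The difference of 4.97 points (95% interval -0.716 to 10.6, exact permutation p = 0.0788) was the highest of the 57 loci. This locus was chosen by its small p in the same libraries, with an unadjusted quasi-binomial p of 0.160. The difference was 6.30 points (p = 0.0270 by the exact permutation test) without control replicate 6 and 6.06 points (p = 0.0297, exact permutation) without protein restricted replicate 7. It was 3.36 points (p = 0.170, exact permutation) without control replicate 1 and 3.95 points (p = 0.371, exact permutation) with runs of title numbers averaged. At chrX-B (169978999 to 169980499, 14 CpGs) the means were 61.8% ± 5.16 (SD, n = 7) and 65.2% ± 3.29 (SD, n = 8), a difference of 3.40 points (-0.913 to 8.22, exact permutation p = 0.144). Without control replicate 3, the lowest library at this locus, it was 1.59 points (exact permutation p = 0.331).

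Along chrX-B the first 11 CpGs, which include those of the G530011O06Rik window shown above, were at 51.6% to 64.5%, and the last 3, over 1 kb from its start, at 78.6% to 92.7%. The CpGs at 169979204 and 169979253 were among the 3 deep CpGs with the smallest unadjusted p on the higher side, at 52.8% ± 7.25 and 51.1% ± 4.25 (SD, n = 7) in control and 56.6% ± 4.19 and 56.1% ± 4.39 (SD, n = 8) in the protein restricted diet. The third was the CpG at 90742446 of chrY-A, at 92.9% ± 3.69 and 95.4% ± 0.9998. None passed, with an adjusted p of 1 in the quasi-binomial test.

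At chrY-A, 35 of 43 CpGs were at 90% or more and 2 were under 80%, at 33.0% and 46.3%. Short gaps recurred along this locus, where 28 of 42 distances between neighbouring CpGs were 10 bases or less and a gap of 7 bases followed by one of 6 was found 5 times. Control libraries were at 80.7%, 91.8% and 93.4% (lowest, median, highest) and protein restricted libraries at 88.4%, 92.1% and 92.4%. The difference of 1.62 points (-1.38 to 5.20, exact permutation p = 0.408) fell to 0.0798 points when control replicate 7, the lowest library, was left out.

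The loci chr6-A and chr16 differed by 4.12 points (-3.77 to 11.9, exact permutation p = 0.264) and 1.08 points (-11.4 to 12.3, exact permutation p = 0.869). At chr6-A control libraries were at 36.8%, 41.2% and 54.5% (lowest, median, highest) and protein restricted libraries at 36.7%, 51.6% and 55.4%. Without control replicate 3 the chr16 difference was 5.98 points, and without control replicate 5 it was -1.56. At chr12-B (20233324 to 20233603, 12 CpGs, outside genes) the difference was -1.06 points (-4.43 to 2.31, exact permutation p = 0.502). At chr11-B, in Sfi1, the means were 74.8% ± 0.745 (SD, n = 7) and 73.9% ± 0.888 (SD, n = 8), a difference of -0.955 points (-1.89 to -0.0422, exact permutation p = 0.0407). Leaving out 1 library took that p as high as 0.0909. This locus was chosen by its small p in the same libraries, and its unadjusted quasi-binomial p was 0.107.

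Loci in gene spans that were not named by these rules ran from 12.4% at chr8-A to 98.5% at chr14-B. A CpG of Trpm8, the cold-sensing ion channel (chr1-B, 88307245), was at 18.4%, and 6 CpGs in Cdk8, a kinase of the Mediator complex (chr5, 146261119 to 146261283), were at 13.9%. In Chl1, a neural cell adhesion gene, chr6-E (103649167 to 103649287) was at 27.5%. On chromosome 4, loci in the zinc finger genes Zfp981 (chr4-C) and Zfp978 (chr4-D) were at 96.9% and 61.7%. These examples were chosen after their values were seen.

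Methylation of the deep loci was also set against that of the chromosome 17 ribosomal block, which ranged from 18.2% to 49.1% over the libraries. Of the 32 loci with at least 3 CpGs, 23 had a Pearson r above 0, with a median of 0.138, against 0.0398 over 29760 groups of at least 3 CpGs. No locus passed after adjustment over all these groups, as did 0% of them, and with 100000 permutations a single group cannot reach an adjusted p below 0.298. At an unadjusted permutation p under 0.05 there were 5 of the 32 loci, all with r above 0, against 5.25% of all groups, or 3.17% with r above 0. They were chr16, chr6-A, chr9-A, chr12-B and chr13-D (119609066 to 119609103). The relations of chr16 and chr6-A had already been seen in these data.

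For the satellite-spaced locus chr9-A, r was 0.612 (permutation p = 0.0147, adjusted p = 0.871) and Spearman's rho 0.614 (permutation p = 0.0166), and r was 0.742 once the 2 libraries with the most extreme block values, control replicates 3 and 5, were left out. Its methylation changed by 0.111 points per point of the block, against 1.20 at chr16 and 0.670 at chr6-A. Within control r was 0.604 and within protein restricted sperm 0.633. For chr12-B, r was 0.595 (permutation p = 0.0183, adjusted p = 0.887) and rho 0.507 (permutation p = 0.0561), and r was 0.372 without those 2 libraries, 0.713 within control and 0.664 within protein restricted sperm. For chr13-D, r was 0.534 (permutation p = 0.0401, adjusted p = 0.926) and rho 0.636 (permutation p = 0.0125), and r was 0.667 without them. For chr16 r was 0.909 (permutation p = 1e-05, the smallest that these permutations can give, adjusted p = 0.298) and rho 0.871 (permutation p = 6.0e-05), with 0.825 without them, and for chr6-A r was 0.778 (permutation p = 0.000570, adjusted p = 0.813) and rho 0.764 (permutation p = 0.00148), with 0.730 without them.

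No other ladder locus had an unadjusted p under 0.05. At chr2-C r was 0.346 (permutation p = 0.208) and rho 0.396 (permutation p = 0.145), with 0.561 without the same 2 libraries. At chr9-D r was 0.141 (permutation p = 0.614) and rho 0.154 (permutation p = 0.585), with 0.358 without them, and at chr9-F r was 0.00727 (permutation p = 0.980) and rho 0.0679 (permutation p = 0.813), with -0.00645 without them. Differences between these coefficients were not tested. The lowest r was at chrX-B, -0.428 (permutation p = 0.111) with rho -0.100 (permutation p = 0.727), where control replicate 3, the highest library of the block, was the lowest at 50.9%, and r was -0.108 without these 2 libraries.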

How the data were processed

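Reduced representation bisulfite sequencing of sperm DNA was compared between 7 control and 8 protein restricted libraries, grouped by the diet in the labels, with replicates numbered in accession order and pairing nothing. The authors deposited raw methylated and total read counts per CpG, per the file headers, not normalized. The submitters' processing notes name Bismark 0.7.12, Bowtie2 2.1.0 and the build mm10, without roles. Trimming, filtering and the placing of reads that match several copies are steps not given in the sources used here. Positions are listed on 1 strand only, with a smallest gap of 2 bases.

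Total counts over the listed CpGs ran from 6650912 to 11841657 per library, with a median coverage of 26 to 42 reads. No pair of libraries was identical, and the mean chi-square per CpG over 105 pairs was 1.07 to 1.85. The labels mention no molecular identifiers, so PCR copies may be counted, and each read counts once per CpG it covers.

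Percent methylation is methylated over total counts, summed over the CpGs of a locus. Each CpG, and each group of CpGs at most 1 kb apart with deep and other CpGs grouped separately, was fitted by quasi-binomial logistic regression on diet (F test, 13 residual degrees of freedom, dispersion at least 1) and Benjamini-Hochberg adjustment over the whole table. Single loci were compared with exact permutation over 6435 splits, whose smallest p is 0.000155, with 95% intervals by inversion. Correlations used 100000 permutations. Scripts ran in Python 3.11.15 with scipy 1.17.1, and limma 3.58.1 was the alternative test. The quasi-binomial and exact permutation tests, but not limma or the correlations, were checked on simulated data. The simulated counts had binomial noise only and diet differences larger than those at the deep CpGs. Intervals cover the spread between libraries, and counting error is not separated from it.

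Named loci are the 12 with most CpGs (at least 5) and the 2 with the smallest p in each direction among those of at least 3 CpGs. Named CpGs are the 3 with the smallest p in each direction. Members and rules were chosen with earlier results of these data known. Genes come from RefSeq, GRCm38.p6, as spans with 2 kb flanks, and exons, introns and scaffold genes were not analysed here. Alternatives were another test, other gaps, a 10-fold threshold, 20 reads in every library, equal weights, averaged runs of title numbers and each library left out.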

Additional observations from a re-analysis of the deposited data

Results flagged for a closer look

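Of 30 sets of libraries (a named locus, or the share of read counts in deep repeats, in 1 diet), 4 had an extreme library set off from its neighbour by a gap that was large for the range of the set, and chance alone gives about 1 in 20. Control replicate 3 stood out at chr16, where its 63.2% compares with 17.9% to 35.8% in the remaining control sperm, and at chrX-B, where its 50.9% compares with 61.7% to 66.4%. Control replicate 4 had 33.3% at chr2-A, above a range of 28.9% to 30.7%. Protein restricted replicate 6 had 88.4% at chrY-A, below a range of 91.3% to 92.4%.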

How the results depend on the processing

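No paired analysis was possible because the labels give the libraries no shared replicate numbers. No deep CpG or locus was called under limma, 20 reads in every library, a threshold of 10 times the median (169 CpGs, 27 loci), gaps of 100 bp (93 loci) or 10 kb (43 loci), or without any 1 library. Loci at an unadjusted p under 0.05 numbered 1, and 2, 3 and 0 with limma, 100 bp and 10 kb. They numbered 3 without control replicate 5 or protein restricted replicate 3, and 2 without control replicate 4 or 7 or protein restricted replicate 4 or 7. The share of all groups at such a p was not counted under these alternatives. With equal weights the difference was -0.567 points at chr2-A and -0.287 at chr2-C. With runs of consecutive title numbers averaged (3 control and 4 protein restricted values, smallest exact p 0.0286) it was -0.471 at chr2-A and -0.839 at chr11-B, where the exact permutation p rose to 0.143. Leaving out each library in turn gave -1.11 to -0.714 at chr11-B, where 9 of 15 omissions took the unadjusted exact permutation p above 0.05, and 3.36 to 6.30 at chrX-D, where 2 took it below. It gave -1.56 to 5.98 at chr16, -0.0617 to 0.242 at chr2-C and -0.103 to 0.694 at chr9-A, with changes of sign. Without a change of sign it gave -1.74 to -0.313 at chr12-B, -0.700 to -0.178 at chr14-A, 0.138 to 0.919 at chr2-A, 2.82 to 5.84 at chr6-A, -0.645 to -0.246 at chr9-D, 0.239 to 2.13 at JH584304-C, 1.59 to 4.17 at chrX-B and 0.0798 to 2.20 at chrY-A.

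The correlation with the chromosome 17 block changed sign with equal weights at chr11-B (0.0436) and chr2-A (0.0985), and within control at chr9-D (-0.107). Within protein restricted libraries it did so at chr11-B (0.438), chr14-A (-0.0648), chr2-A (0.440) and JH584304-C (-0.00262). Without the 2 farthest libraries, control replicates 3 and 5, it did so at chr11-B (0.00766), chr14-A (-0.0606), chr2-A (0.0484) and JH584304-D (-0.119). The cause of these changes was not tested. Depth limits most the loci with few summed counts, such as JH584304-A and those of 1 CpG.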
